A study of Homo sapiens with 13 samples.

Results

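The S phase and DNA replication genes described here are a list of 41 genes, chosen by symbol; the rule uses no measured value. All 41 were found among the 15005 genes of the single-cell table. In the bulk table, 40 were matched among 57820 gene identifiers; UHRF1 was not matched there and its bulk level was not analysed here. Tumours came from BM1, a line with a tropism for bone that was derived from MDA-MB-231, an established human breast cancer line. Each athymic nude mouse received 1000000 cells in its mammary fat pad. Athymic nude mice lack most T cells and keep other host cells, and the tumours contain mouse stroma.

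In the bulk experiment, 5 tumours of BM1 cells with an empty vector (BM1-VC, written CTRL) were set against 5 tumours of BM1 cells overexpressing KMT5C, a histone H4 lysine methyltransferase, both 4 weeks after implantation. In the single-cell experiment, 3 CTRL tumours were set against 3 tumours of BM1 cells expressing RKIP-S153E, a mutant of the kinase inhibitor RKIP with a serine replaced by glutamate, all 3 weeks after implantation. Each replicate experiment of this kind held 1 tumour of each arm, and mouse cells and dead cells were removed from the dissociated tumours before capture on a Fluidigm C1 instrument. The mice of both experiments were athymic, the promoters driving the constructs are not given in the sources used here, and it is not stated whether an arm came from 1 clone. The p-values therefore measure the spread between tumours of 1 cell population per arm, and a difference between the populations that came before the construct cannot be told apart from its effect.

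Before S phase, the origin recognition complex, CDC6 and CDT1 load the MCM helicase onto origins, and MCM10, CDC45 and the GINS complex turn it into an active helicase. PCNA, its loader RFC, the polymerases and FEN1 then copy the DNA, ribonucleotide reductase and thymidylate synthase supply the nucleotides, and chromatin assembly factors place histones behind the fork. Many of these genes are targets of E2F transcription factors, so their messages accumulate together from late G1 into S phase, and in a tumour their summed level is widely used as a sign of proliferation.

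The promoters of CLSPN, GINS2, CDC6 and HELLS are printed to show such E2F words, because these genes correlated most with the other S phase genes across cells among the genes that hold an E2F word. An E2F word was one of TTTGGCGC, TTTCCCGC, TTTGCCGC and TTTCGCGC on either strand, and overlapping words were each counted. The sequences run 5′ to 3′ on the gene's strand from 235 bases before to 15 bases after the RefSeq start (GRCh38.p14), with the E2F words in capitals. The CLSPN stretch is chr1:35769964-35770213 on the minus strand. GINS2 lies at chr16:85688940-85689189 on the minus strand. CDC6 is at chr17:40287644-40287893 on the plus strand and HELLS at chr10:94545553-94545802 on the plus strand.
CLSPN: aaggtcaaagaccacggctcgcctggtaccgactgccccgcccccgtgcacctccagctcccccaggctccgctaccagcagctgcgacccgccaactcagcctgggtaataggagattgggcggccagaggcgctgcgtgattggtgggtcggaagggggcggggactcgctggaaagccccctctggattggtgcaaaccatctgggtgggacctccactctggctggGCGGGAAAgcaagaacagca
GINS2: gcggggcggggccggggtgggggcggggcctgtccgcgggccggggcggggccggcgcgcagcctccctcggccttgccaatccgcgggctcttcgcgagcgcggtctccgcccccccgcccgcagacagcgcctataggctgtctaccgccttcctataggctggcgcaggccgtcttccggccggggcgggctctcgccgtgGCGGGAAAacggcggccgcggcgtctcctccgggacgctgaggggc
CDC6: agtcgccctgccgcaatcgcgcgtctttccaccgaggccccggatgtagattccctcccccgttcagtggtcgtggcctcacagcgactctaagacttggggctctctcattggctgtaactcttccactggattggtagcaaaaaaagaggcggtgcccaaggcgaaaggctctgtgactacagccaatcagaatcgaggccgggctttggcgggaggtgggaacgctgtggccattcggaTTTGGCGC
HELLS: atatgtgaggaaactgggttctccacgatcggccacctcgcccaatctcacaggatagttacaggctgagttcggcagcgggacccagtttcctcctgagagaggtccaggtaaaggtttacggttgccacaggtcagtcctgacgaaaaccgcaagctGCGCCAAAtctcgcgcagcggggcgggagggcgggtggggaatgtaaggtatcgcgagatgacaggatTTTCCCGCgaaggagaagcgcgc
The word began 5 bases before the start in CLSPN (position -5), at -31 in GINS2, at 8 in CDC6, and at -76 and -8 in HELLS. The transcribed bases of the CLSPN and GINS2 windows were not found in GENCODE 29 transcripts, so the start may differ between annotations and these positions hold for the RefSeq start. In all, 35 of the 41 genes had a promoter window of 300 bases (250 before and 50 after the start) and 20 of these 35 (57.1%) held an E2F word, against 3.99% of the 27305 genes with a window. Per window, the share was 44.7% of 47 windows against 3.31% of all 35116 windows. The cell cycle homology word TTTGAA, known from promoters of G2 and M genes, showed the reverse pattern. It was found on either strand in 6.38% of the windows of the S phase genes, in 68.3% of those of 40 listed G2 and M genes and in 15.2% of all windows, while E2F words were in 9.76% of the G2 and M windows. CCAAT words were in 66.0% of the windows of S phase genes, in 78.0% of the G2 and M windows and in 34.6% of all windows. A match is a description of the letters and not a binding site.

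The bulk libraries held 37050750 to 49536763 counts. The single-cell tumours gave 247, 267 and 258 CTRL cells and 266, 274 and 256 RKIP cells, with medians of 55704 to 95289 counts per cell. KMT5C was at 7.16 to 11.2 CPM (counts per 1000000 counts of the scaled library) in CTRL and 99.8 to 145 CPM in the KMT5C tumours, and rat Pebp1, the RKIP construct, was at 0, 0.608 and 0.295 CPM in CTRL and at 11.9, 205 and 126 CPM in the RKIP tumours. VIM, a mesenchymal marker of MDA-MB-231 cells, averaged 6686.3 CPM in bulk CTRL, while the oestrogen receptor gene ESR1 averaged 0.211 CPM. On the C1 chip, CTRL and RKIP cells sat in different columns, and 0 columns held cells of both arms, so the arm and the chip column cannot be told apart.

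In the bulk tumours, no S phase gene passed the test for a difference between the arms. Per kilobase of exon, PCNA, the sliding clamp of the polymerases, stood highest in CTRL at 123 CPM per kb. It was followed by MCM3 at 86.7, MCM7 at 70.7 and the flap endonuclease gene FEN1 at 54.8 CPM per kb. The lowest levels per length were those of GINS3, at 2.68, BLM, at 2.76, and CCNE2, at 2.87 CPM per kb. With edgeR's quasi-likelihood test, 0 of 40 S phase genes passed an adjusted p of 0.05, where 2.96% of the 17947 genes tested did (1.06% higher and 1.9% lower in KMT5C). At an unadjusted p of 0.05, 2 of the 40 passed, against 16.8% of all genes; this count rested on the tumours, as it was 4 without CTRL tumour 813, 5 without KMT5C tumour 823 and 8 without both. DESeq2 called 0 of them as well. The median log2 fold change of the 40 genes was 0.00, as it was over all genes, with 21 genes above 0. The arms overlapped for all 40 genes, where 2.44% of all genes were higher and 3.26% lower in KMT5C without overlap.

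**Figure D1:**
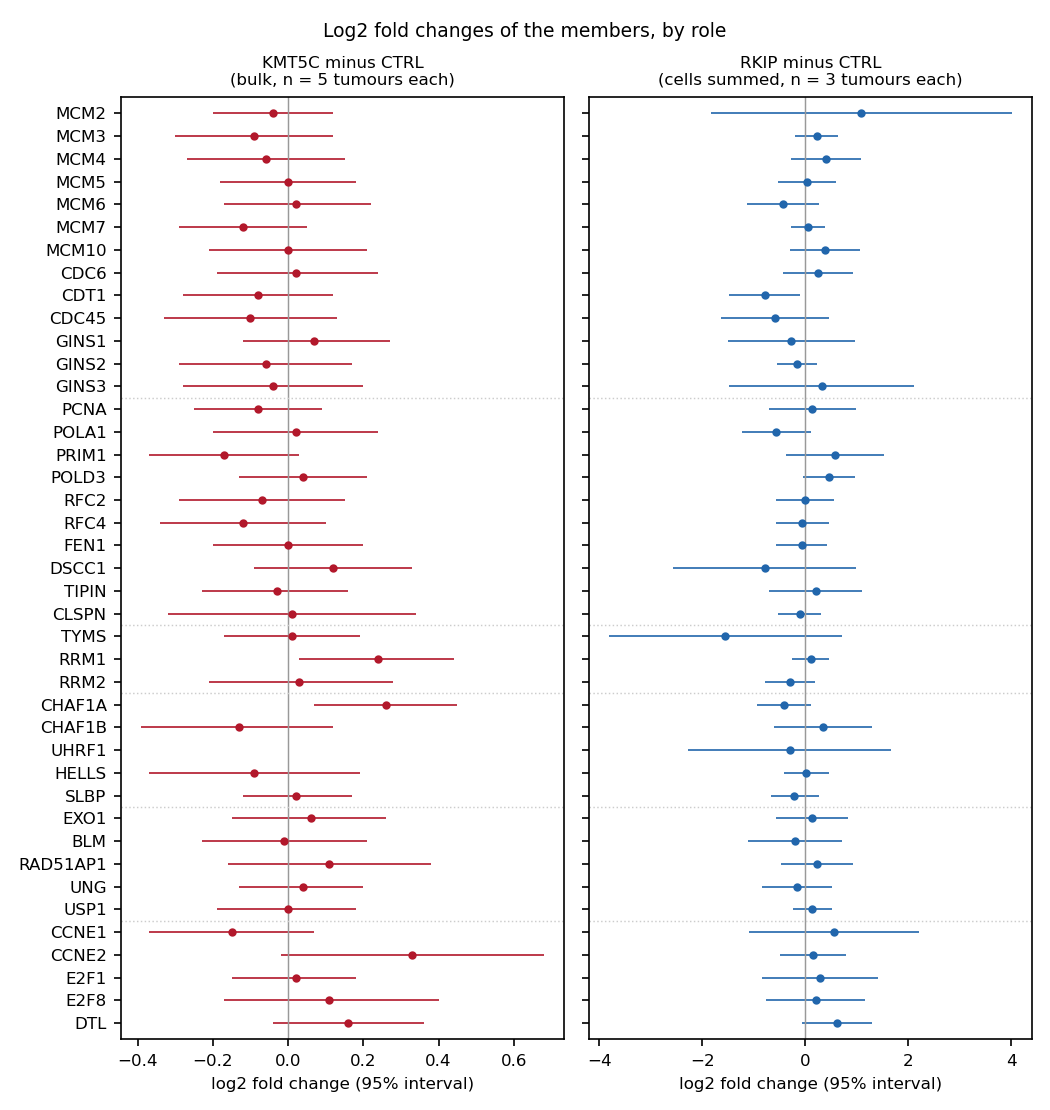
Log2 fold changes with 95% intervals for each gene, ordered by role (dotted lines), KMT5C minus CTRL in bulk (left, 5 tumours each) and RKIP minus CTRL from summed cells (right, 3 tumours each); the horizontal scales differ. Bulk points lie between -0.17 and 0.33, and single-cell points between -1.55 and 1.09.

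Among the 13 genes of origin licensing and the helicase, log2 fold changes ran from -0.12 to 0.07. MCM5, a helicase subunit, was at 96.8, 104, 119, 86.0 and 98.9 CPM in CTRL tumours 801, 803, 804, 813 and 815. In KMT5C tumours 807, 809, 816, 820 and 823 it was at 94.3, 93.7, 103, 113 and 102 CPM. The arms covered each other, with a log2 fold change of 0.00 (SE 0.084). CDC6, which recruits the helicase with CDT1, was at 85.5, 83.2, 81.1, 60.5 and 87.4 CPM in CTRL and 92.7, 74.0, 82.0, 85.9 and 69.2 CPM in KMT5C, given in the same order of tumours. Its 1 low CTRL value lay under every KMT5C value, and the means were 79.5 ± 10.9 and 80.8 ± 9.34 CPM (SD, n = 5). CDT1 averaged 48.2 ± 5.38 and 45.6 ± 5.49 CPM (SD, n = 5), with ranges of 40.9 to 55.8 and 37.7 to 51.6 CPM.

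No gene of the fork or of nucleotide supply passed the adjusted test either. PCNA was at 164, 196, 208, 157 and 179 CPM in CTRL and at 183, 160, 170, 176 and 166 CPM in KMT5C, so all KMT5C values lay inside the CTRL range. PRIM1, the small primase subunit, had the lowest log2 fold change of the list at -0.17 (SE 0.096). It was at 21.1, 21.9, 22.1, 16.3 and 20.6 CPM in CTRL and at 18.8, 15.4, 19.1, 19.6 and 17.9 CPM in KMT5C. RRM1, the large subunit of ribonucleotide reductase, was 1 of the 2 genes past an unadjusted p of 0.05, with a log2 fold change of 0.24 (SE 0.096, edgeR adjusted p 0.219). It was at 183, 184, 192, 144 and 182 CPM in CTRL and at 213, 188, 213, 250 and 177 CPM in KMT5C, where 3 KMT5C tumours lay above every CTRL tumour and the other 2 lay inside the CTRL range. Its partner RRM2 averaged 224 ± 41 and 230 ± 22.1 CPM (SD, n = 5), and TYMS, thymidylate synthase, 114 ± 14.8 and 115 ± 5.19 CPM.

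CHAF1A, the large subunit of the histone chaperone CAF-1, had the lowest p of the list, with a log2 fold change of 0.26 (SE 0.089, unadjusted p 0.0108, edgeR adjusted p 0.141). Its values were 38.9, 45.0, 48.2, 35.3 and 45.0 CPM in CTRL and 51.5, 47.6, 51.9, 56.4 and 46.4 CPM in KMT5C. The arms met only at CTRL tumour 804, which lay above KMT5C tumours 809 and 823. CHAF1B, the middle subunit, lay the other way at -0.13 (SE 0.12), with 19.3, 19.2, 21.2, 12.2 and 20 CPM in CTRL and 18.5, 15.4, 16.8, 17.2 and 15.9 CPM in KMT5C. SLBP, which binds the stem-loop of histone messages, had the smallest SE of the list (0.068) and a log2 fold change of 0.02.

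Of the control genes, CCNE2, a cyclin E that drives entry into S phase, had the largest log2 fold change at 0.33 (SE 0.17, edgeR adjusted p 0.331). It was at 15.5, 10.1, 8.45, 11.9 and 17.1 CPM in CTRL and at 17.6, 14.9, 17.6, 17.0 and 12.2 CPM in KMT5C. The CTRL values were spread more widely than the KMT5C values, and 2 of them lay among these. CCNE1, the other cyclin E, was at 10.0, 11.5, 11.3, 8.78 and 12.1 CPM in CTRL and 11.2, 8.61, 9.44, 9.63 and 9.56 CPM in KMT5C, with a log2 fold change of -0.15 (SE 0.10). E2F1, the activator, was at 0.02 (SE 0.077) and E2F8, a repressor of the same targets, at 0.11 (SE 0.13) on the log2 scale. DTL, which directs CDT1 to destruction in S phase, was at 0.16 (SE 0.095). The 5 repair genes EXO1, BLM, RAD51AP1, UNG and USP1 lay between -0.01 and 0.11.

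The 95% intervals of the 40 genes reached no lower than -0.39 (CHAF1B) and no higher than 0.68 (CCNE2) on the log2 scale. The lists beside them gave the same counts of calls. Of 51 other replication genes, 0 were called (median log2 fold change 0.02), of 40 G2 and M genes 0 (0.06), and of 36 tested cell cycle control genes 0 (0.08), with 3, 1 and 4 past an unadjusted p of 0.05. Skeletal muscle markers did move with the arm. Of 11 tested skeletal muscle markers 6 were higher in KMT5C, their summed level being 26.7 to 35.6 CPM in CTRL and 40.8 to 71.8 CPM in KMT5C. In the cells left after mouse cell depletion, the 3 muscle markers present still summed to 14.6 to 25.2 CPM in CTRL and 9.9 to 18.2 CPM in RKIP. Whether the bulk muscle signal came from host muscle was not tested. Of 5 tested endothelial markers 1 was called lower in KMT5C, with sums of 57.2 to 83.8 CPM in CTRL and 40.2 to 65.7 CPM in KMT5C. Of 4 tested leukocyte markers 1 was called lower, and of 4 fibroblast and 3 adipocyte markers 0 were called. The sum of the leukocyte list was 124 to 172 against 93.5 to 122 CPM, nearly all of it LAPTM5 (means of 140 and 89.6 CPM), while the defining leukocyte gene PTPRC averaged 0.557 and 0.488 CPM. LAPTM5 was also at 98.1 and 104 CPM in the CTRL and RKIP cells left after mouse cell depletion. Which cells gave this sum was not tested, and it is not read as an amount of host cells. The part of muscle or endothelium in the values of the S phase genes was not tested. In bulk RNA, fewer cells of a type and less RNA per cell cannot be told apart.

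What varied in the bulk data was the single tumour. In CTRL tumour 813, 36 of 40 S phase genes (90.0%) had the lowest of the 5 CTRL values, where 24.0% of all genes did. Its median deviation from the arm mean was -0.287 on the log2 scale, against -0.003 over all genes. RRM2 was at 154 CPM there and at 235, 235, 263 and 235 CPM in CTRL tumours 801, 803, 804 and 815, and CLSPN, the checkpoint mediator claspin, at 34.4 CPM against 63.0, 57.3, 51.4 and 66.5 CPM. Genes of every role were low in it, since MCM10 (32.1 against 42.2 to 45.3 CPM), HELLS, a chromatin remodeller (45.7 against 69.0 to 74.8 CPM), EXO1 (19.7 against 25.9 to 28.4 CPM) and E2F8 (15.3 against 17.7 to 22.3 CPM) all had their lowest CTRL value there. The 4 genes that were not lowest there were CDT1, MCM7, SLBP and CCNE2.

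The low values of tumour 813 were not limited to S phase genes. Of the G2 and M genes 39 of 40 were lowest there, with a median deviation of -0.422, and of the other replication genes 41 of 51 (-0.272), against 16 of 36 cell cycle control genes (-0.124). The proliferation marker MKI67 was at 203 CPM in it and at 345, 305, 315 and 328 CPM in the other CTRL tumours. Its depth (44839907 counts) and its tumour marker sum (17594.5 CPM) lay inside the CTRL range, its leukocyte list (124 CPM) and fibroblast (342 CPM) sums were the lowest of the arm and its muscle sum (35.6 CPM) the highest; their part was not tested.

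In the KMT5C arm, tumour 823 stood lowest for 26 of 40 S phase genes (65.0%, against 34.1% of all genes), with a median deviation of -0.171. E2F8 was at 13.9 CPM there and at 20.8 to 23.5 CPM in the other 4. Its tumour marker sum (21118.6 CPM) and leukocyte list sum (122 CPM) were the highest of the arm, and their part was not tested. CTRL tumour 804 was highest for 21 of 40 genes and KMT5C tumour 807 for 18. Summed over the 40 genes, CTRL tumours were at 3046.3, 3240.1, 3404.0, 2521.6 and 3159.1 CPM and KMT5C tumours at 3211.2, 2865.2, 3146.3, 3282.0 and 2792.1 CPM. The means, 3074.2 ± 335 and 3059.4 ± 218 CPM (SD, n = 5), differed by far less than the spread within either arm.

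**Figure D2:**
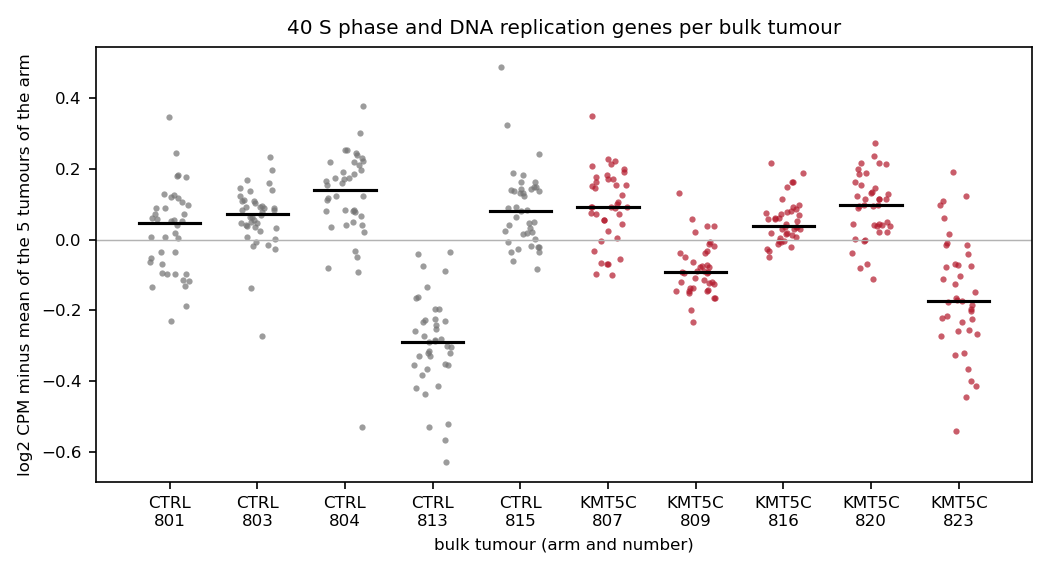
Each point is 1 of 40 genes, shown as log2 CPM minus the mean of the 5 tumours of its arm (vertical axis) for each bulk tumour (horizontal axis); black lines are medians. The points of CTRL 813 (median -0.287) and KMT5C 823 (-0.171) lie mostly below 0.

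These tumours bear on the comparison of the arms. Without CTRL tumour 813, the median log2 fold change of the S phase genes was -0.06 and 10 of 40 lay above 0, in place of 21. With CTRL 813 and KMT5C 823 both left out, an alternative chosen after seeing the data, the median was -0.03, 13 of 40 lay above 0 and 0 were called. At an unadjusted p of 0.05, 8 of the 40 then passed, and 3211 of 18042 genes. The median SE of a log2 fold change over all 10 tumours was 0.098 for the 40 genes and 0.11 for all genes.

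In the single-cell tumours, with counts summed per tumour and the replicate experiment as a block, 0 of 41 S phase genes were called by edgeR, where 0.00688% of 14528 genes were (1 gene, the rat Pebp1 construct). At an unadjusted p of 0.05, 1 of the 41 passed (CDT1), against 4.01% of all genes. DESeq2 called 61 genes and 0 of the 41. Summed CPM of the 41 genes was 2232.0, 2419.0 and 2112.7 in CTRL tumours 1, 2 and 3 and 2648.3, 2213.9 and 2101.8 in RKIP tumours 1, 2 and 3. RKIP tumour 1 was the highest, and the others mixed (means 2254.6 ± 154 and 2321.3 ± 289 CPM, SD, n = 3). The median log2 fold change was 0.06 (0.00 over all genes), with 23 of 41 above 0, and the median SE was 0.28, against 0.098 in bulk.

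CDT1, the licensing factor, was at 50.3, 61.0 and 42.7 CPM in CTRL and 22.4, 30 and 38.7 CPM in RKIP, lower in RKIP in all 3 pairs. The arms did not overlap, and the log2 fold change was -0.78 (SE 0.28, unadjusted p 0.0314, edgeR adjusted p 0.973). CDT1 was thus not called. Without pair 1 its log2 fold change was -0.58 and without pair 3 it was -1.10.

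Non-overlap was seen for 4 of the 41 genes, all lower in RKIP (9.76% of the list), where 4.47% of all genes were lower and 4.43% higher without overlap. Beside CDT1 they were RRM2, with 59.5, 51.8 and 65.7 against 47.2, 47.5 and 49.1 CPM, and CHAF1A, with 117, 105 and 95.3 against 61.4, 90.8 and 89.4 CPM. The fourth, TYMS, was at only 4.83, 5.06 and 4.20 against 0.39, 2.51 and 3.44 CPM. TYMS was not above the detection background described below, so it is counted here but no order is read from it. The log2 fold changes of RRM2, CHAF1A and TYMS were -0.29 (SE 0.20), -0.41 (SE 0.22) and -1.55 (SE 0.93), none past an unadjusted p of 0.05. TYMS moved with the pairs used, to -0.64 without pair 1 and -2.29 without pair 3, and was at -0.02 with limma on mean log2 values per cell. For CHAF1A the sign was opposite to that in the KMT5C comparison, which uses other tumours; neither passed the adjusted test and the difference between them was not tested.

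On the other side, DTL was at 12, 28.4 and 26.3 CPM in CTRL and 25.3, 34.9 and 37.1 CPM in RKIP, higher in RKIP in all 3 pairs (log2 fold change 0.62, SE 0.28, edgeR adjusted p 0.973), with arms that overlapped and a value of 0.40 without pair 1. POLD3 was also higher in all 3 pairs, at 67.9, 44.4 and 63.4 against 100, 73.3 and 67.1 CPM (0.46, SE 0.21, edgeR adjusted p 0.973). Its arms overlapped too, and its value was 0.32 without pair 2 and 0.01 with limma on mean log2 values per cell. PRIM1 was at 6.11, 15.5 and 22.8 against 15.8, 20.8 and 22 CPM (0.57, SE 0.39), with 0.19 without pair 1. It had a count in 4.15% of the cells of CTRL tumour 1, inside the detection background described below. No order between the arms is read from it. MCM2 had the highest fitted value, 1.09 (SE 1.2), but on very few counts. It was at 0, 10.9 and 0.552 CPM in CTRL and 0.30, 5.78 and 1.37 CPM in RKIP, with a mean that was higher in CTRL, and without the block the fitted value turned to -0.63; with the block it was 0.13 without pair 1 and 2.53 without pair 2. DSCC1, part of an alternative clamp loader, was at 4.69, 9.78 and 5.16 against 1.26, 4.17 and 9.12 CPM (-0.79, SE 0.74), with -0.19 without pair 1 and -1.56 without pair 3.

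The genes of the active helicase and fork showed no common direction. MCM10 was at 61.6, 89.2 and 60.0 CPM in CTRL and 139, 82.0 and 64.1 CPM in RKIP, and CDC6 at 81.4, 129 and 99.4 against 167, 98.1 and 105 CPM. In both, RKIP tumour 1 was the highest of the 6. POLA1, the catalytic subunit of the priming polymerase, was at 38, 45.8 and 45.3 against 38.5, 25.6 and 25.2 CPM, where pairs 2 and 3 were lower in RKIP and pair 1 was level. GINS2 was at 99.8, 102 and 80.8 against 93.7, 86.5 and 73.7 CPM, lower in RKIP in all 3 pairs by less than the spread of the tumours (-0.15, SE 0.16). PCNA was at 23.0, 50.9 and 62.2 against 46.2, 54.6 and 38.4 CPM.

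UHRF1, which brings DNA methylation maintenance to the new strand and could be followed only here, was at 5.52, 13.6 and 4.35 against 7.92, 2.46 and 7.44 CPM, with no order between the arms. The cyclin gene CCNE2 was at 74.1, 39.3 and 30.2 against 54.1, 56.5 and 39.8 CPM. E2F1 was low, at 6.29, 8.15 and 9.94 against 5.76, 7.93 and 20.4 CPM. The 51 other replication genes, 40 G2 and M genes and 35 cell cycle control genes also had 0 calls, with medians of 0.09, 0.18 and 0.21 and 5, 0 and 3 past an unadjusted p of 0.05.

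Levels per cell were uneven. For this, 1481 cells of 20000 counts or more were each thinned to that number. A median cell then held 21, 37 and 30 counts of the 41 genes in CTRL tumours 1, 2 and 3 and 28, 28 and 28 in RKIP tumours 1, 2 and 3, while the 95th percentile was 125 to 138 counts in all 6. The top 10% of cells held 28.6% to 34.2% of all counts of these genes. The median number of S phase genes with a count was 6 to 10 per cell, and the richest cells had 26 to 32. Cells with no count of any of the 41 genes were 1, 2, 2, 2, 0 and 1 in CTRL 1, 2 and 3 and RKIP 1, 2 and 3, where 0 of 256 cells allows a share of up to 1.17% (counting error only).

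**Figure D3:**
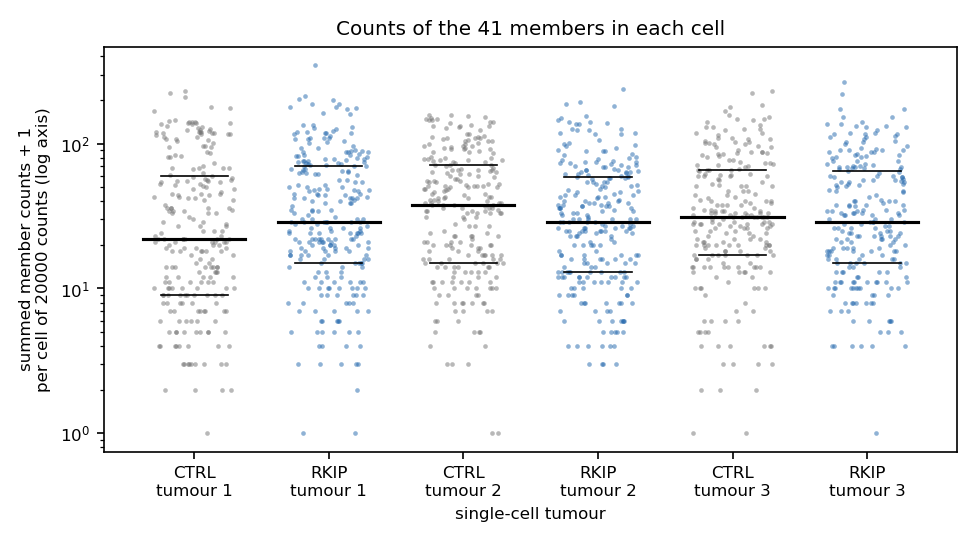
Summed counts of the 41 genes plus 1 (log axis) in each cell of the 6 single-cell tumours, every cell thinned to 20000 counts; thick lines are medians and thin lines quartiles. Medians lie at 21 to 37 counts in all tumours, and the spread within each tumour is far larger than the differences between them.

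A given S phase gene had a count in a median of 23.6% of cells, from 1.15% (MCM2) to 62.9%, against 9.52% over all genes. Of 13 listed skeletal muscle markers, which tumour cells should lack, 3 were in the single-cell table. These had a count in 0.878% to 6.14% of cells, so MCM2, TYMS and GINS3 were not above that background. Every gene of this table had a count in at least 20 cells. Markers seen in fewer cells would be missing, and the background may be set too high. It also depends on the list used. Endothelial markers had a count in 1.55% to 9.12% of cells, the leukocyte list in 2.43% to 43.7% and fibroblast markers in 0.945% to 4.46%. By the endothelial list, more S phase genes would reach into the background. The shares of CCNE1 (3.66% to 6.22% over the tumours), UHRF1 (2.34% to 7.59%) and DSCC1 (1.92% to 11.8%) also reached into the muscle marker range. No order is read from the single-cell values of these 6 genes. The lowest tumour shares of E2F8 (2.49%), CHAF1B (3.32%), PRIM1 (4.15%) and E2F1 (4.23%) lay inside that range too. So did those of BLM (4.56%), GINS1 (4.62%), CDC45 (5.0%) and TIPIN (5.39%), and no order between the arms is read from these genes either. Cell-to-cell variation, as the log2 squared coefficient of variation beyond its trend on the mean, was compared over the 3 pairs with limma. It was called for 0% of 10177 genes and 0 of 37 S phase genes, with 3.91% of all genes and 0 of the 37 at an unadjusted p of 0.05. The median RKIP minus CTRL difference was 0.0378 for the S phase genes and -0.0142 for all genes.

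Across cells, the S phase genes went up and down together. Spearman correlations of thinned counts were taken within each tumour and averaged over the 6, for the 33 S phase genes whose thinned mean was 0.2 counts or more. All 528 pairs had a mean correlation above 0, and 444 (84.1%) were above 0 in each of the 6 tumours, against 5.31% of all pairs of the 8395 genes that passed this limit. The median was 0.179, against 0.0161 for all pairs, and 470 pairs (89%) lay above 0.101, the 99th percentile of all pairs. The 8395 genes were not matched to the S phase genes in level, and correlation can depend on level. The cells of a tumour share library, chip and preparation, and no p is attached.

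The 5 strongest pairs each held CLSPN, MCM10 or GINS2. MCM10 with CLSPN reached 0.381 (0.274 to 0.535 over the tumours), CLSPN with CCNE2 0.378, MCM10 with CDC6 0.371, GINS2 with CLSPN 0.368 and GINS2 with CCNE2 0.367. The 2 subunits of ribonucleotide reductase, RRM1 and RRM2, stood at 0.361 (0.208 to 0.448). Pairs within the helicase, MCM3 to MCM7, ran from 0.177 (MCM4 with MCM7, MCM6 with MCM7) to 0.273 (MCM3 with MCM5), mostly above the median of the list, while CHAF1A with CHAF1B stood at 0.111. The weakest pairs were SLBP with BLM and TIPIN with DTL, both at 0.015. The lowest tumour shares of CHAF1B, BLM and TIPIN lay inside the detection background, so low values of their pairs are uncertain.

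**Figure D4:**
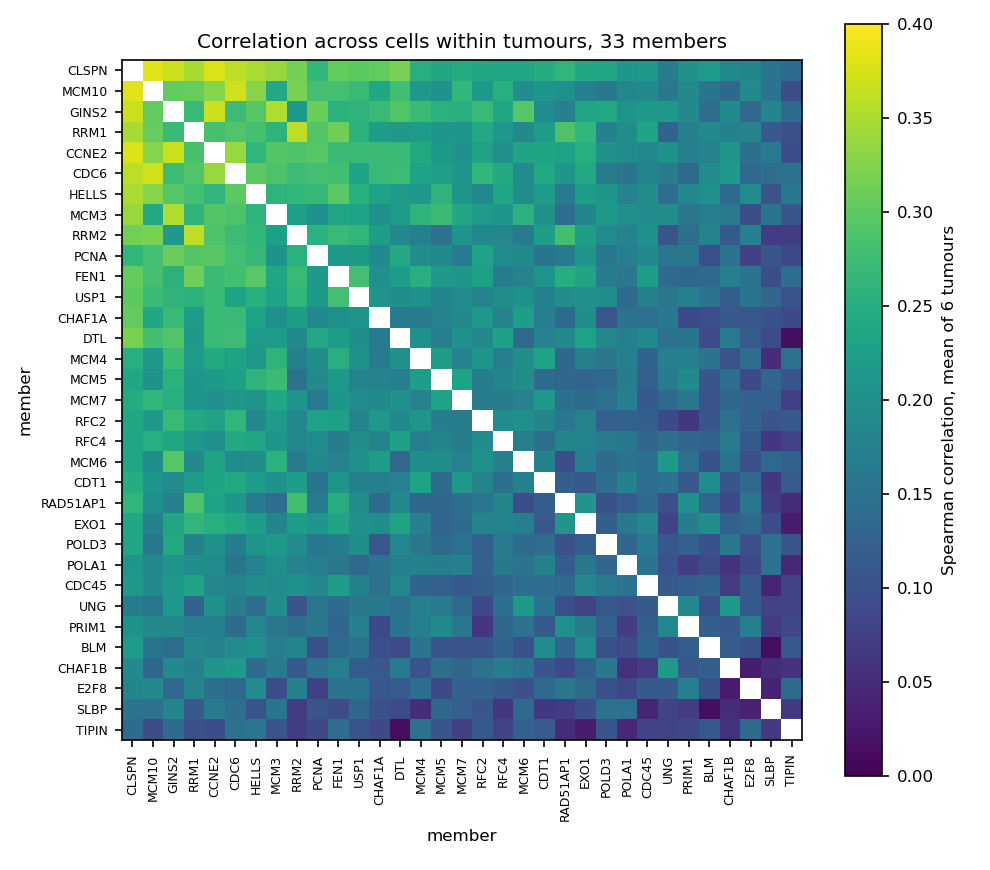
Mean within-tumour Spearman correlation (colour) between each pair of the 33 S phase genes with a thinned mean from 0.2 up, both axes ordered by correlation with the sum of the other S phase genes. The upper left corner (CLSPN, MCM10, GINS2, CCNE2, CDC6) reaches 0.381 and the pairs of SLBP and TIPIN, at the end, go down to 0.015.

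Set against the sum of the other S phase genes, CLSPN had the highest correlation, 0.501 (0.393 to 0.592). MCM10 followed at 0.451, GINS2 at 0.45, RRM1 at 0.442, CCNE2 at 0.439, CDC6 at 0.431, HELLS at 0.428 and MCM3 at 0.409. These neighbours lay within each other's range over tumours. At the other end were E2F1 at 0.223, E2F8 at 0.221, DSCC1 at 0.178, SLBP at 0.177, GINS1 at 0.176, TIPIN at 0.173, CCNE1 at 0.165, UHRF1 at 0.149, GINS3 at 0.091, TYMS at 0.070 and MCM2 at 0.020. The order followed the level, since the Spearman correlation of the thinned mean with this value was 0.833 over the 41 genes, which share their libraries. Genes with few counts therefore cannot be placed. SLBP was an exception in level, with a thinned mean of 1.32 counts, above those of PCNA (0.895, correlation 0.389) and DTL (0.49, correlation 0.357). The 20 genes with an E2F word in the printed kind of promoter window had a median of 0.303 and the 15 without one a median of 0.325, but their median thinned means also differed, at 0.693 and 1.04 counts.

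Of the 41 genes, 39 had a higher mean correlation with the other S phase genes than with the summed G2 and M genes, and 32 did so in each of the 6 tumours. The 41 include MCM2, TYMS, GINS3, CCNE1, UHRF1 and DSCC1, which lay in or reached into the detection background and cannot be placed. The lowest tumour shares of E2F8, CHAF1B, PRIM1, E2F1, BLM, GINS1, CDC45 and TIPIN also lay inside it, so their places are uncertain. GINS2 was at 0.45 with the S phase sum and 0.116 with the G2 and M sum, MCM3 at 0.409 and 0.114, MCM5 at 0.333 and 0.078, MCM6 at 0.325 and 0.067 and UNG, uracil DNA glycosylase, at 0.257 and 0.027. RRM2 and the repair gene RAD51AP1 differed. RRM2 was at 0.390 with the S phase sum and 0.433 with the G2 and M sum, and RAD51AP1 at 0.301 and 0.312, both higher with S phase in 3 of 6 tumours. RRM1 lay between, at 0.442 and 0.343.

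**Figure D5:**
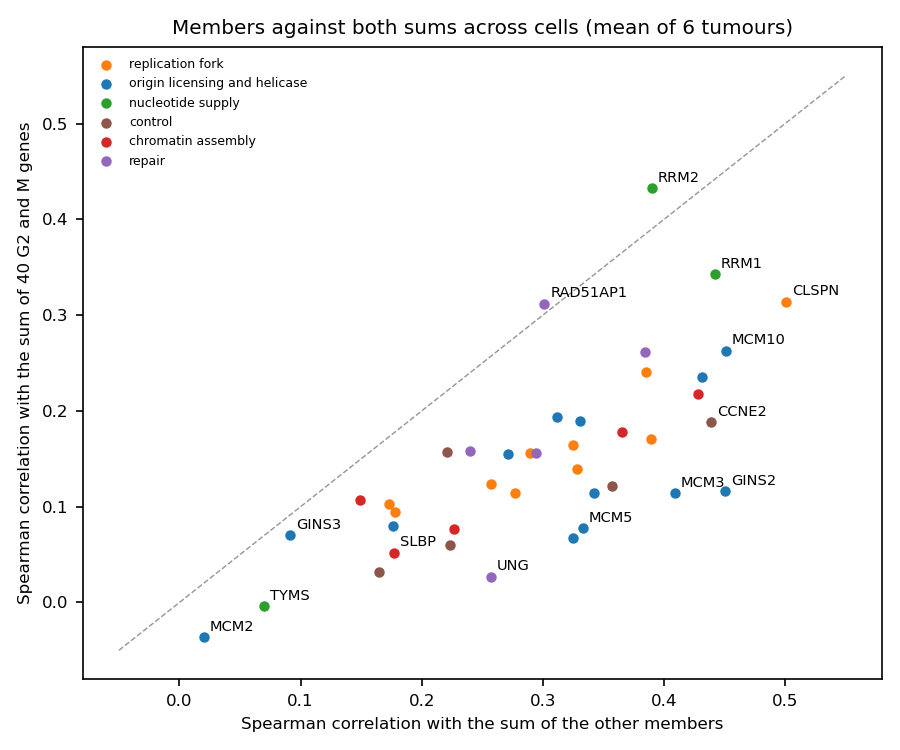
Mean within-tumour Spearman correlation of each of the 41 genes with the sum of the other S phase genes (horizontal) and with the sum of 40 G2 and M genes (vertical), coloured by role; the dashed line marks equal values. RRM2 (0.390 and 0.433) and RAD51AP1 (0.301 and 0.312) lie above the line, and the others below it.

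Both sums rose together to a degree, with correlations between the S phase and the G2 and M sum of 0.325 to 0.438 in the 6 tumours. The S phase sum also correlated with the number of genes detected in a cell, at 0.209 to 0.394. With detected genes held fixed, the median pair correlation per tumour was 0.107 to 0.182, against 0.129 to 0.251 without this, and within chip columns it was 0.116 to 0.247. Tumour medians were 0.146, 0.187 and 0.251 in CTRL 1, 2 and 3 and 0.129, 0.169 and 0.218 in RKIP 1, 2 and 3. The value was lower in RKIP in all 3 pairs at this depth, but at 10000 counts per cell pair 2 went the other way (0.121 in CTRL and 0.141 in RKIP). The median correlation of S phase with G2 and M genes was 0.0473 to 0.150, and that among G2 and M genes 0.244 to 0.410.

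Outside the list, the genes that followed the S phase sum most closely over the 6 tumours were CENPU, a centromere protein, at 0.561 (0.448 to 0.645), ATAD2, a bromodomain ATPase, at 0.524 and the histone gene HIST1H4C at 0.453. PCLAF, a PCNA partner, was at 0.444, the maintenance DNA methyltransferase gene DNMT1 at 0.439 and FAM111B at 0.410. STMN1 (0.405), HMGB2 (0.399), UBE2C (0.398) and ATAD5 (0.389) completed the top 10 of the genes at that level. CENPU and ATAD2 lay above CLSPN, although they are compared with the sum of all 41 genes and CLSPN with that of the other 40. The most negative values were those of NDRG1 (-0.280), FTL (-0.258), TMSB10 (-0.254), SOX4 (-0.230) and MALAT1 (-0.221).

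The bulk and single-cell tables were scaled separately, so a level set across them carries the difference between the assays, and tumours of different ages. Over 9137 genes with a bulk CTRL level of 10 CPM or more, the median log2 ratio of single-cell to bulk CTRL level was -0.62. No such level was asked of the single cells. This choice by bulk level favours ratios below 0 and bears on the percentiles given here. TYMS was at 114 CPM in bulk and 4.70 CPM in single cells (log2 ratio -4.34, percentile 0.887 of these genes), and MCM2 at 85.3 and 3.83 CPM (-4.16, percentile 1.13). For both, 100% of the last 500 exon bases overlap exons of genes on the other strand in GENCODE 29, ENOSF1 and TYMSOS for TYMS and TPRA1 for MCM2, and the C1 kit reads the 3′ end of messages. Reads from overlapping genes cannot be told apart without strand, the sources used here do not give the strand setting, and whether the overlap lowers these values was not tested. E2F1 was also low (-2.86, percentile 5.26) with 0% of its 3′ end shared. PRIM1, with 78.8% of its 3′ end shared, had a log2 ratio of -0.44 (percentile 55.5). Its exons overlap genes on the same strand, NACA among them, which those of TYMS and MCM2 do not, and HSD17B6 on the other strand. Which of these cover its 3′ end was not separated, and whether the overlap changes its counts was not tested. CCNE2 (47.8 CPM in single cells and 12.6 in bulk), GINS2 (94.1 and 25.8) and CLSPN (177 and 54.5) were higher in single cells, with log2 ratios of 1.84, 1.83 and 1.68, and 30.4% of the 3′ end of CCNE2 is shared with INTS8 and another gene on the other strand.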

How the data were processed

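RNA was measured in 10 bulk tumours and, cell by cell, in 6 tumours. Both deposited tables hold raw counts of reads per gene, which the authors did not normalize. Per the submitters' processing notes, Trim Galore, STAR and featureCounts were used; versions, strand setting and the roles of the builds hg38 and hg19 are not given in the sources used here. The 41 genes and all lists were chosen with earlier results of these data known.

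Bulk identifiers were named from a table of gene symbols (51996 of 57820 matched; identifiers without a symbol held 0.664% of counts and were kept). Cells were assigned to arms and pairs by column names; pair numbers 1 to 3 are arbitrary. The cell with fewer than 1000 detected genes was removed (1 of 1569), and no doublet caller was run. Tests used edgeR 4.0.16 (R 4.3.3): filterByExpr, TMM, robust quasi-likelihood, two-sided, Benjamini-Hochberg over all genes tested, threshold 0.05. CPM means counts per 1000000 of the scaled library, and SEs come from the F statistic. For single cells, the sum per tumour was tested with the replicate experiment as a block, since per the labels each held 1 tumour of each arm; same-pair correlations of deviations from arm means were 0.188, 0.0705 and 0.19, other pairs -0.173 to 0.0348. Per-cell results used 20000 counts per cell (seed 1; 87 cells left out), and variation limma 3.58.1 on genes with a thinned mean from 0.1 up. No library copied another (smallest chi-square per degree of freedom 7.35 in bulk and 40.3 in single cells). The scripts were tested on simulated data. All 41 genes could be named. Values in every tumour are given for members picked by role, for those with the 3 largest changes in each direction, and, after their values were seen, for others the text singles out. The 10 genes outside the list are those most correlated with its sum. Alternatives were DESeq2 1.42.0, other scaling and filters, a muscle marker covariate, no block, other depths and leaving out tumours. Counts may include amplification copies, so counting limits cover counting error only.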

Additional observations from a re-analysis of the deposited data

Results flagged for a closer look

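Of 82 groups of 5 tumours examined (each of the 40 S phase genes and their sum in each bulk arm), 13 had an end value whose gap to its neighbour exceeded 0.71 of the whole range, where chance gives about 1 in 20. In 11 of these, CTRL tumour 813 was the lowest of its arm. They were MCM4 (122 CPM, next 155), MCM10 (32.1, next 42.2), CDC6 (60.5, next 81.1), PRIM1 (16.3, next 20.6), POLD3 (22.7, next 27.3) and RRM1 (144, next 182). The others were RRM2 (154 CPM, next 235), CHAF1B (12.2, next 19.2), HELLS (45.7, next 69.0), EXO1 (19.7, next 25.9) and RAD51AP1 (20.4, next 28.8). The genes are correlated, so these are not separate events. MCM2 was highest in KMT5C tumour 820, at 97.3 CPM with the next at 82.4. E2F8 was lowest in KMT5C tumour 823, at 13.9 CPM with the next at 20.8.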

How the results depend on the processing

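In 30 alternative fits, 0 S phase genes were called. The number of all genes called moved more. In bulk, 531 (190 higher, 341 lower) became 801 without a low count filter, 1126 (514 higher, 612 lower) with DESeq2, 11 with a muscle marker covariate and 337 to 681 with 1 tumour left out. It was 351 without CTRL 803, 344 without KMT5C 807 and 337 without KMT5C 820. The muscle marker sums did not overlap between the bulk arms (26.7 to 35.6 CPM in CTRL and 40.8 to 71.8 CPM in KMT5C). In fits with the muscle covariate, muscle and arm largely cannot be told apart, so no effect of muscle is read from them. In single cells, 1 became 0 without the replicate block, 61 with DESeq2, 9 with limma on mean log2 values and 0 to 1 with 1 pair left out (0 without pair 2 or pair 3). The block changed no call of an S phase gene. For 13 single genes 4 values changed sign over all settings run: CCNE1 (0.11) and CHAF1B (0.12) with the muscle covariate in bulk, and MCM2 in single cells without the replicate block (-0.63) and with limma (-0.00162). With the muscle covariate the median of the 40 genes was 0.12. The summed level differed between arms by -0.483% of the CTRL mean in bulk (-4.76% to 2.26% with 1 tumour left out) and 2.96% in single cells (-4.77% to 9.33% with 1 pair left out, -3.61% thinned), within the larger SD of 10.9% and 12.8%. The median pair correlation, 0.183 as the mean over tumours, was 0.140 at 10000 counts and 0.170 to 0.194 with 1 tumour left out; 2 checks, within chip columns (0.181) and with detected genes held fixed (0.144), were chosen after seeing the data. With 3 tumours per arm, median SEs of 0.28 limit what single-cell fold changes can show.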
